A study of Mus musculus with 53 samples.

Results

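Nr5a1, Fezf1, Adcyap1 and Sox14 are 4 genes that mark the ventromedial hypothalamus (VMH), the nucleus that lies directly above and beside the arcuate nucleus (ARC). They were chosen by symbol, matched to Ensembl identifiers, and all 4 had a row among the 53379 genes of the count tables. The tables hold RNA sequencing of laser-captured tissue from the paraventricular nucleus (PVN) and the ARC of adult C57BL/6 mice, with no library of the VMH itself. The animals were wild type (Nnat+/+) or had lost the paternal allele of the imprinted gene Nnat, replaced by a lacZ cassette (Nnat+/-p), and they ate chow or, for males only, a 45% high-fat diet (HFD) from 4 weeks of age. The study split the chow-fed Nnat+/-p mice by body weight into non-obese and obese animals, below 35 g and above 37 g in males and below 25 g and above 30 g in females.

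The female PVN, on chow only, gave 4 Nnat+/+ libraries, and 3 each from non-obese and obese carriers. The male PVN gave 3 Nnat+/+, 3 non-obese and 4 obese Nnat+/-p libraries on chow, and 6 Nnat+/+ and 3 Nnat+/-p libraries on HFD. The male ARC gave 2 Nnat+/+, 4 non-obese and 4 obese Nnat+/-p libraries on chow, and 6 Nnat+/+ and 4 Nnat+/-p libraries on HFD. The protocol in the labels speaks of male mice aged 13 to 14 weeks, although some libraries are labelled female, and the labels do not say whether a library pooled animals.

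SF-1, the nuclear receptor that Nr5a1 encodes, is required for the VMH to form and, within the brain, is largely confined to it. Fezf1 encodes a zinc-finger repressor expressed early in the same nucleus, and Sox14 encodes a SOX transcription factor found in subsets of hypothalamic and other forebrain neurons. Adcyap1 encodes the neuropeptide PACAP, which is abundant in the VMH but is also made in other nuclei, the PVN among them. VMH neurons are mostly glutamatergic, and the nucleus is known for its part in energy expenditure, glucose control, defence and mating. Because the VMH borders the ARC and not the PVN, transcripts of these genes in captured tissue can come from neighbouring VMH cells as well as from cells of the target nucleus, and in bulk samples fewer cells of a type and less RNA per cell cannot be told apart.

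In GENCODE M21 on GRCm38, Nr5a1 (ENSMUSG00000026751) lies on the minus strand of chromosome 2 at chr2:38692656-38714542. Fezf1 (ENSMUSG00000029697) lies on the minus strand of chromosome 6 at chr6:23245044-23248362. Adcyap1 (ENSMUSG00000024256) lies on the plus strand of chromosome 17 at chr17:93199017-93206537. Sox14 (ENSMUSG00000053747) lies on the minus strand of chromosome 9 at chr9:99874106-99876170. An antisense gene, Nr5a1os, overlaps Nr5a1 on the opposite strand and held 64 counts over the 49 libraries used. The strand setting of the counting is not given in the sources used here, so reads of the pair cannot be told apart where they overlap. No annotated gene overlaps the other three.

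Promoter windows of 3 of the 4 genes, all but Nr5a1, are shown to describe the letters around their start sites. Each window runs 5′ to 3′ on the gene's strand, 250 bases before to 50 bases after a RefSeq start on GRCm38.p6. Capitals mark exact matches, on either strand, to the CCAAT box (CCAAT), the GC box (GGGCGG), the TATA box (TATAAA) and the core of the cAMP response element (TGACG, which is also part of the full element).
Fezf1, chr6:23248215-23248514, minus strand: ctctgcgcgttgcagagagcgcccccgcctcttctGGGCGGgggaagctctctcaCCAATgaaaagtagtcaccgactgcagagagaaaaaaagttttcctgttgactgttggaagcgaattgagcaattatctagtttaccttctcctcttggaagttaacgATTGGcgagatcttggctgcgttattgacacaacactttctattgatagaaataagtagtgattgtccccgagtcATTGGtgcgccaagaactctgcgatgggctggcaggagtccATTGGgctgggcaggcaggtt
Sox14, chr9:99876121-99876420, minus strand: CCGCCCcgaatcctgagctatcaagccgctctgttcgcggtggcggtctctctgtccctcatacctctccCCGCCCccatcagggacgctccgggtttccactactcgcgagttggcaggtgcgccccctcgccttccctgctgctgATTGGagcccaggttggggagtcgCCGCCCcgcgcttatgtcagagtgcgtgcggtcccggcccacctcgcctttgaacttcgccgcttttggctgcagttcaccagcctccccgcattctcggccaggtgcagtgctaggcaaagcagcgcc
Adcyap1, chr17:93198918-93199217, plus strand: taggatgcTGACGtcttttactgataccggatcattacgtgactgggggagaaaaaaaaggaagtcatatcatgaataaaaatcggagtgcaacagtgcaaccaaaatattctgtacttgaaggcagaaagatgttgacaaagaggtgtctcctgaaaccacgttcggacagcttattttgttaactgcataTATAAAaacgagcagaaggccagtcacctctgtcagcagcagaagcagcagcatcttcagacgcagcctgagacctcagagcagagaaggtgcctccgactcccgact

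The Fezf1 window was 50.0% G and C and held 4 CCAAT matches and 1 GC box. The Sox14 window was 66.0% G and C, with 3 GC boxes and 1 CCAAT match. The Adcyap1 window was 45.7% G and C and was the only one of these with a TATA box, beside 1 TGACG. A second Adcyap1 start further upstream, with the window chr17:93198767-93199066, held the same TGACG and 2 CCAAT matches. Of the 32851 windows of this length in the table, 37.4% hold a CCAAT, 35.7% a GC box, 20.8% a TGACG and 13.6% a TATA box. The element bound by SF-1 (CAAGGTCA or CAAGGCCA), present in 3.92% of all windows, the full cAMP response element (TGACGTCA), in 1.79%, and the core bound by NKX2-1 (CAAGTG), in 13.6%, had no match in the 4 windows. Nr5a1 is named only. These matches describe the letters of the windows and nothing more.

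The total count per library ranged from 6219365 to 30228973 in the female PVN, from 2268021 to 8560199 in the male PVN and from 1479953 to 18058097 in the ARC. Levels are given as CPM, the count of a gene scaled to the total of its library. Nnat itself ranged from 224 to 584 CPM in the 21 Nnat+/+ libraries and from 0.268 to 13.7 CPM in the 28 Nnat+/-p libraries. Both nuclei were checked by 6 PVN markers (Sim1, Avp, Oxt, Crh, Trh, Otp) and 6 ARC markers (Agrp, Npy, Pomc, Cartpt, Ghrh, Tac2). The summed PVN markers ranged from 23.0 to 117 CPM over the 20 ARC libraries and from 614 to 2530 CPM over 17 of the 19 male PVN libraries. The summed ARC markers separated less well. They ranged from 61.0 to 705 CPM over the ARC libraries and from 8.50 to 42.3 CPM over the same 17 male PVN libraries. In the female PVN they ranged from 20.9 to 82.7 CPM, which overlaps the ARC. The remaining male PVN libraries stood apart and are identified by replicate number, as the labels number the samples.

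PVN replicate 15, a chow-fed Nnat+/+ male, went against its label. Its PVN markers summed to 31.4 CPM, with Avp at 0.163, Oxt at 0.489 and Sim1 at 0.489 CPM, and its ARC markers summed to 186 CPM, with Pomc at 98.4 CPM. Its 4 VMH genes summed to 234 CPM. PVN replicate 24, an HFD-fed Nnat+/+ male, had PVN markers at 169 CPM in sum with Avp at 0.896 and Oxt at 1.25 CPM, and Nkx2-1, a transcription factor of the basal hypothalamus, at 29.9 CPM. Its VMH genes summed to only 12.9 CPM. It also held the dorsomedial hypothalamus markers Ppp1r17, Grp and Npvf at 54.8, 17.9 and 2.51 CPM. The lateral hypothalamus markers Pmch and Hcrt were at 25.8 and 10 CPM in it. The tissue behind these values was not tested. Comparisons within the male PVN and of ARC over PVN were repeated without both libraries.

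In all, 4 libraries were left out. Sample 5, 7 and 35 had totals lower than 25% of the median in their own table, and Sample 32 is labelled ARC but stands in the PVN table. Of these, the library labelled ARC replicate 35 carried summed PVN markers of 921 CPM and ARC markers of 11.1 CPM, and it shares its labelled weight with PVN replicate 15.

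**Figure D1:**
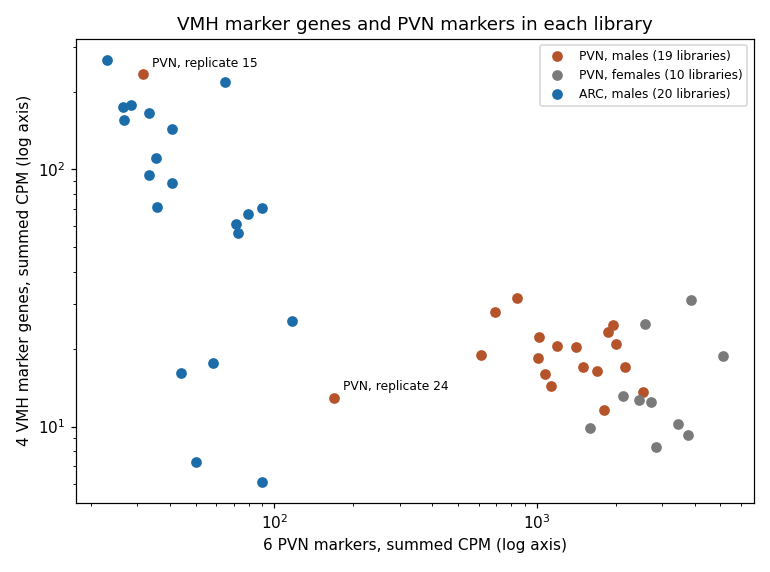
Summed CPM of the 4 VMH marker genes (vertical, log axis) against summed CPM of 6 PVN markers (horizontal, log axis), 1 point per library used, coloured by nucleus and sex. PVN replicate 15 (VMH genes 234, PVN markers 31.4 CPM) sits among the ARC libraries, and PVN replicate 24 (PVN markers 169 CPM) lies between the groups.

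The first question was whether the VMH genes separate the ARC from the PVN. All 4 were higher in the ARC, in chow-fed Nnat+/-p males and in HFD-fed Nnat+/+ males, the 2 settings compared. In Nnat+/-p males on chow, Nr5a1 averaged 32.1 ± 16.4 CPM (SD, n = 8) in the ARC and 3.05 ± 3.59 CPM (n = 7) in the PVN. Fezf1 averaged 38.6 ± 21.1 CPM in the ARC and 5.23 ± 3.51 CPM in the PVN. Adcyap1 averaged 64.1 ± 34.7 and 12.0 ± 3.33 CPM, and Sox14 5.46 ± 2.26 and 0.780 ± 1.58 CPM. For Nr5a1, Fezf1 and Adcyap1, 7 of the 8 ARC libraries lay above every PVN library, the exception being ARC replicate 43.

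The corresponding log2 fold changes, ARC over PVN, were 3.80 for Nr5a1 (SE 0.72, edgeR adjusted p = 0.00016), 3.09 for Fezf1 (SE 0.56, adjusted p = 8.43e-05), 2.59 for Adcyap1 (SE 0.45, adjusted p = 4.91e-05) and 4.05 for Sox14 (SE 0.88, adjusted p = 0.0011). Sox14 had 0 or 1 counts in the non-obese and 0 to 15 in the obese PVN libraries, so the size of its fold is uncertain. The 4 of 4 called stands beside 31.2% of the 21400 genes tested in that comparison (12.6% higher and 18.6% lower in the ARC), at the threshold of adjusted p under 0.25 that the study used. With the libraries of both nuclei matched on labelled weight as a block, the values were 4.33 (adjusted p = 4.33e-05), 3.09 (0.000355), 2.12 (0.000171) and 3.74 (0.0154) in edgeR.

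In HFD-fed Nnat+/+ males all 4 log2 fold changes were smaller than in chow-fed Nnat+/-p males, a difference that was not tested. These settings differ in genotype as well as diet. The HFD-fed ARC libraries spread widely. Nr5a1 averaged 5.61 ± 5.61 CPM in the ARC and 0.778 ± 0.755 CPM in the PVN (SD, n = 6 each), a log2 fold change of 3.44 (SE 0.81, edgeR adjusted p = 0.00631). Sox14 averaged 2.70 ± 1.29 and 0.499 ± 0.419 CPM, a log2 fold change of 2.93 (SE 0.83, edgeR adjusted p = 0.0325). It had only 0 to 7 counts in these PVN libraries. Adcyap1 averaged 23.4 ± 19.5 and 12.4 ± 3.18 CPM, a log2 fold change of 1.42 (SE 0.47, edgeR adjusted p = 0.0994). Fezf1 averaged 6.55 ± 5.77 and 3.07 ± 2.21 CPM, a log2 fold change of 1.69 (SE 0.60, edgeR adjusted p = 0.141). All 4 were called higher, beside 6.96% of the 21400 genes (3.55% higher and 3.41% lower in the ARC), and in each gene the ARC and PVN ranges overlapped.

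Adcyap1 in 2 HFD-fed ARC libraries (2.77 and 3.25 CPM) was below its level in every PVN library of that group. With labelled weight as a block, Nr5a1 and Sox14 did not pass the filter on low counts, and Adcyap1 (log2 fold change 0.98, edgeR adjusted p = 0.219) and Fezf1 (1.40, adjusted p = 0.18) were called. Without PVN replicates 15 and 24, all 4 were called in both settings. The HFD call of Fezf1 was lost without PVN replicate 23, 25 or 26 (edgeR adjusted p = 0.259, 0.263 and 0.267) and without ARC replicate 45 (log2 fold change 1.10, adjusted p = 0.559), and that of Adcyap1 without ARC replicate 45 (1.03, adjusted p = 0.426). Since all ARC libraries stand in one deposited table and all male PVN libraries in another, the nucleus and the table cannot be told apart.

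Other genes linked to the VMH were less uniform. Of 12, 8 were called higher and 2 lower in the ARC in chow-fed Nnat+/-p males, with a median log2 fold change of 0.61 against 3.45 for the 4 members. Nptx2, a secreted synaptic pentraxin, rose by 3.14 on the log2 scale (SE 0.48, edgeR adjusted p = 4.19e-06), Nkx2-1 by 2.78 (SE 0.65, adjusted p = 0.00249) and Cnr1, the cannabinoid receptor CB1, by 1.36 (SE 0.22, adjusted p = 9.7e-06). Foxp2, a forkhead transcription factor, was lower, at -1.41 (SE 0.27, edgeR adjusted p = 0.000174). In HFD-fed Nnat+/+ males 3 were called higher and 2 lower, with a median of -0.07, near the -0.04 of all genes. Fezf2, the paralogue of Fezf1, went the other way from it, with log2 fold changes of -6.45 in chow-fed Nnat+/-p (SE 0.76, edgeR adjusted p = 1.62e-08) and -3.82 in HFD-fed Nnat+/+ males (SE 0.70, adjusted p = 0.000233). The ARC libraries of these groups held 0 to 2 and 0 to 8 counts of Fezf2, so the sizes of its folds are uncertain. Nr5a2, the paralogue of Nr5a1, was called higher only on HFD, at 2.51 (SE 0.60, edgeR adjusted p = 0.00707), against -0.10 on chow (SE 0.53, adjusted p = 0.958), a difference that was not tested. Of the 3 PACAP receptor genes 0 were called in either setting. All 6 ARC markers tested were called higher and all 6 PVN markers lower, in both settings.

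**Figure D2:**
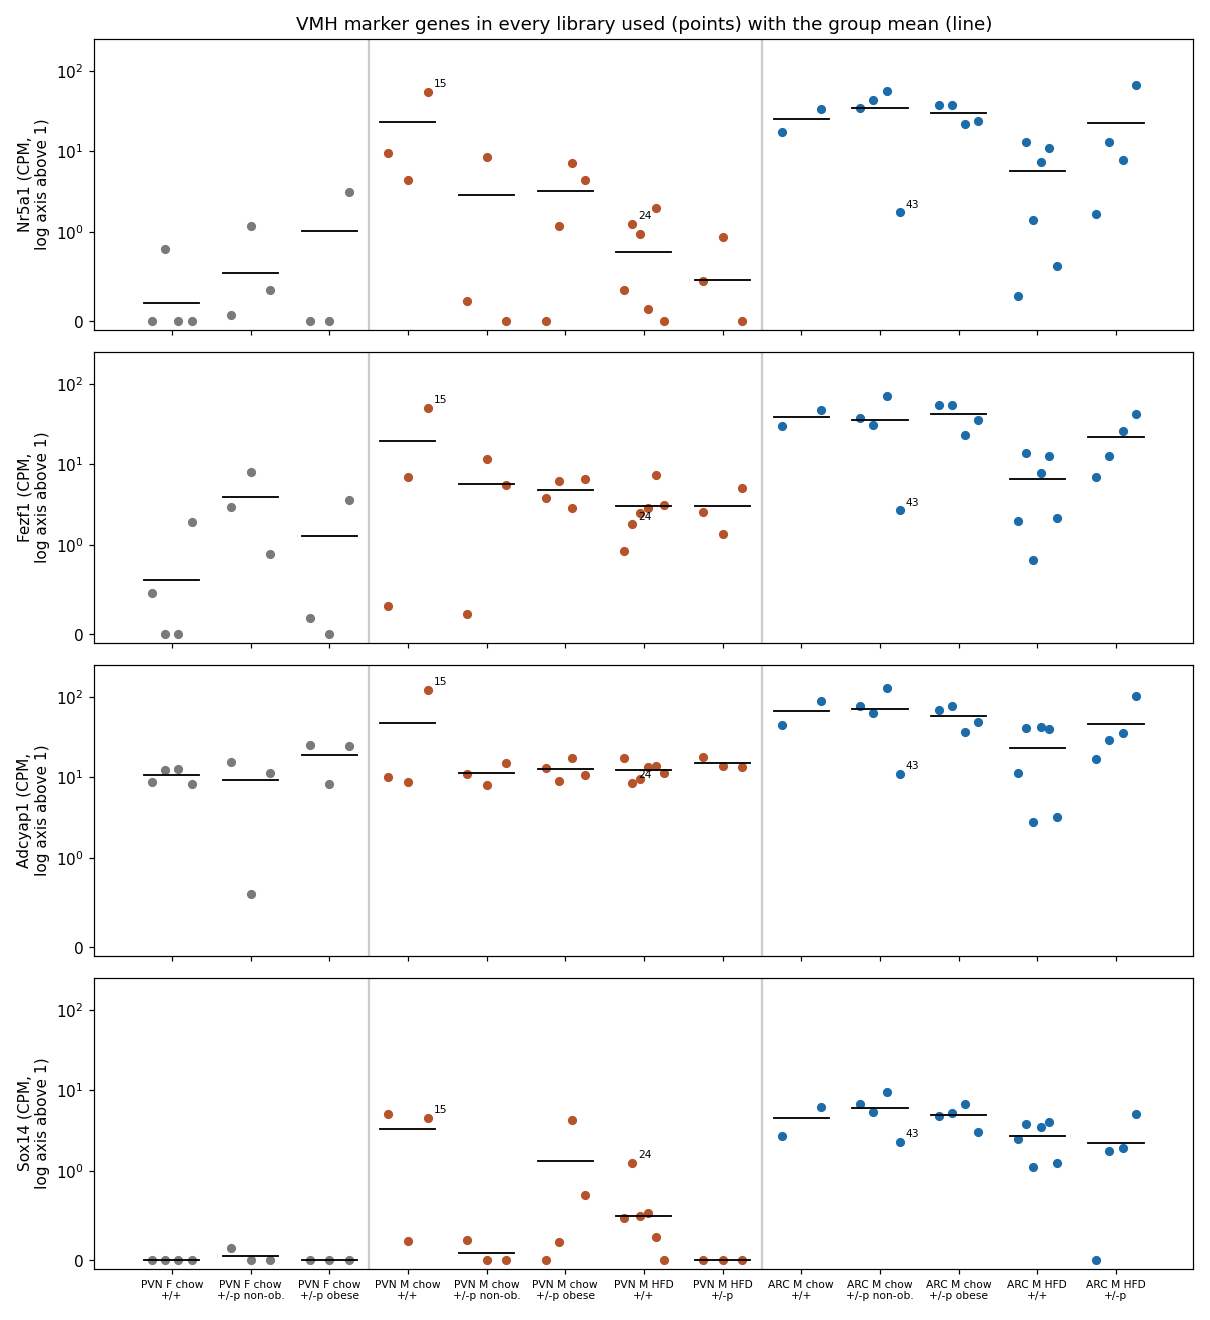
CPM of Nr5a1, Fezf1, Adcyap1 and Sox14 in every library used (points, in order of replicate number within a group; vertical axis linear to 1 and logarithmic above) in the 13 groups, with the group mean as a line. PVN replicates 15 and 24 and ARC replicate 43 are numbered. As highest over lowest CPM of Nr5a1, ARC libraries on HFD spread 46.3-fold in Nnat+/+ and 40.9-fold in Nnat+/-p. On chow they spread 32.4-fold in the non-obese and 1.74-fold in the obese Nnat+/-p libraries. For Fezf1 the non-obese chow-fed group spread most of the ARC groups (26.3-fold). Sox14 was at 0 in 9 of 10 female PVN libraries.

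Divided by exon length, the ARC means ran in the order Adcyap1 (12.9 CPM per kb), Fezf1 (10.7), Nr5a1 (5.08) and Sox14 (1.88). The order was the same in the male PVN without replicate 15, at 3.26, 1.64, 0.539 and 0.368 CPM per kb. Adcyap1 was the gene of the 4 with a steady level in the PVN, between 7.94 and 18.0 CPM in the 18 male libraries other than replicate 15. Nr5a1 ranged from 0 to 9.40 CPM in those libraries and was at 0 in 4 of them. When the 13 groups were ordered by mean level, every pair of neighbours overlapped in all 4 genes, so the order below is a description.

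For Nr5a1 the highest means were the 3 chow-fed ARC groups, non-obese Nnat+/-p (34.1 ± 23.4 CPM), obese Nnat+/-p (30.1 ± 8.57 CPM) and Nnat+/+ (25.4 ± 11.6 CPM). Next came the chow-fed Nnat+/+ male PVN (23.0 ± 28.1 CPM), which rests on replicate 15 and is 6.88 ± 3.56 CPM without it. The HFD-fed ARC followed at 22.3 ± 30.1 CPM in Nnat+/-p and 5.61 ± 5.61 CPM in Nnat+/+. The remaining PVN groups lay at or below 3.18 CPM.

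Within the ARC, the second question was whether Nnat genotype or obesity moved the VMH genes on chow. Neither did so detectably. Nr5a1 stood at 17.2 and 33.6 CPM in the 2 Nnat+/+ libraries. It stood at 21.8, 23.7, 37.2 and 37.9 CPM in the obese Nnat+/-p libraries. In the non-obese Nnat+/-p libraries it was 34.2, 43.9, 56.4 and, in replicate 43, 1.74 CPM. All of these groups overlapped.

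The same held for the others. Fezf1 was 30.1 and 47.9 CPM in Nnat+/+, 23.2, 35.3, 54.1 and 54.4 CPM in the obese, and 2.68, 30.4, 38.1 and 70.5 CPM in the non-obese libraries. Adcyap1 was 44.7 and 89.6 CPM in Nnat+/+, 36.9 to 77.2 CPM in the obese and 11.0 to 130 CPM in the non-obese libraries. Sox14 was 2.69 and 6.27 CPM in Nnat+/+, 3.04 to 6.75 CPM in the obese and 2.28 to 9.46 CPM in the non-obese libraries.

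In each of the 3 chow comparisons edgeR called 0 of the 4 genes, 0 of 4 had an unadjusted p under 0.05, and DESeq2 called 0. Of all 14658 genes tested, 0.0205% passed for the obese carriers against Nnat+/+, 0.0136% for the non-obese carriers against Nnat+/+, and 0.00682% for obese against non-obese. The log2 fold changes of the 4 genes lay between -0.38 (Fezf1, non-obese against Nnat+/+, SE 0.55) and 0.42 (Fezf1, obese against non-obese, SE 0.45). With 2 Nnat+/+ libraries, differences of the size of these standard errors could not be detected. ARC replicate 43, the low library, also had Pomc at 2.01 CPM and Pmch, the melanin-concentrating hormone precursor of lateral hypothalamic neurons, at 171 CPM; the part of this in its VMH gene levels was not tested.

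Between HFD and chow in the ARC of Nnat+/+ males, 1 of the 4 genes, Fezf1, passed the test, as lower on HFD. Nr5a1 was 0.278, 0.618, 1.39, 7.40, 11.1 and 12.9 CPM in the 6 HFD libraries, all below both chow libraries. Fezf1 was 0.832, 1.95, 2.16, 7.77, 12.6 and 14.0 CPM, again all below 30.1 and 47.9 CPM on chow. Adcyap1 was 2.77, 3.25, 11.4, 39.4, 40.8 and 42.6 CPM, with both chow libraries higher at 44.7 and 89.6 CPM. In each of these genes ARC replicates 44, 46 and 49 formed the low 3. Sox14 was 1.11 to 4.05 CPM on HFD and overlapped its chow values.

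Fezf1 fell by 2.25 on the log2 scale (SE 0.62, edgeR adjusted p = 0.196). Nr5a1 had a log2 fold change of -1.85 (SE 0.80, edgeR adjusted p = 0.499), Adcyap1 one of -1.30 (SE 0.62, adjusted p = 0.572) and Sox14 one of -0.50 (SE 0.74, adjusted p = 0.932). Of 15753 genes tested, 1.15% were called, with 0.628% of all genes lower and 0.521% higher on HFD. The HFD and chow ranges did not overlap in 3 of the 4 genes, and 9.08% of all genes tested lay lower on HFD with no overlap, so with 2 chow libraries this separation is common.

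The Fezf1 call was not stable. DESeq2 called 0 of the 4 (1 at an unadjusted p under 0.05). With single libraries removed, the call was lost in 5 of 8 fits: without chow replicate 33 (edgeR adjusted p = 0.594) or 34 (log2 fold change -1.85, adjusted p = 0.852), where the 1 chow library left is assumed to vary like the other groups, and without HFD replicate 44, 46 or 49 (adjusted p = 0.311, 0.336 and 0.284). Nr5a1 was called without HFD replicate 45 (log2 fold change -2.55, edgeR adjusted p = 0.224). The Fezf1 call was also lost without ARC replicates 44 and 51, whose labelled weights carry the other genotype in the PVN table (log2 fold change -2.10, edgeR adjusted p = 0.369), and also with ARC replicate 35 among the controls. Every one of these fits gave Fezf1 a negative value.

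Of the 6 ARC markers tested between the same libraries, 1 was called. All 6 had fitted values above 0, and Cartpt, the precursor of a satiety peptide, rose (log2 fold change 1.92, SE 0.33, edgeR adjusted p = 0.0122). Their median log2 fold change was 2.16, against 0.0339 over all genes tested. Their sum was 72.3 and 72.4 CPM in the chow libraries and 112 to 705 CPM on HFD. Pmch and Hcrt, the defining peptides of the lateral hypothalamus, summed to 30.9 and 99.8 CPM on chow and to 0.277 to 29.4 CPM on HFD. Of the 3 HFD-fed Nnat+/+ libraries with the least VMH transcript, ARC replicate 46 had the highest summed ARC markers of that group, 705 CPM. ARC replicate 44, also among them, had the lowest, 112 CPM. The part of neighbouring tissue in the VMH gene values was not tested.

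Of 12 other genes linked to the VMH, 8 had values below 0 on HFD, and their median log2 fold change was -0.66. The called ones were Cnr1, which fell by 1.38 on the log2 scale (SE 0.33, edgeR adjusted p = 0.119), and Nptx2, which fell by 1.47 (SE 0.44, adjusted p = 0.237). Dlk1, an imprinted Notch-family ligand that the ARC also makes, rose by 1.05 (SE 0.29, edgeR adjusted p = 0.175). Bdnf had a log2 fold change of -1.51 (edgeR adjusted p = 0.297) and Slc17a6, the vesicular glutamate transporter of VMH and other hypothalamic neurons, one of -1.05 (adjusted p = 0.342). The PACAP receptor gene Adcyap1r1 was nearly level at -0.09 (SE 0.16, edgeR adjusted p = 0.948), and 0 of the 3 PACAP receptors were called.

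Between genotypes on HFD, the ARC libraries overlapped in all 4 genes. Nr5a1 was 1.64, 7.73, 13.0 and 66.9 CPM in the 4 Nnat+/-p libraries against at most 12.9 CPM in Nnat+/+. Fezf1 was 7.02, 12.7, 26.0 and 42.4 CPM against at most 14.0 CPM. Adcyap1 was 17.1, 29.2, 35.2 and 104 CPM, and Sox14 was 0, 1.76, 1.93 and 5.04 CPM. Replicate 53 was the highest of the 4 in every gene, and at 66.9 CPM it held the highest Nr5a1 level of all libraries used.

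Of the 4 genes edgeR called 0 and DESeq2 called 0, beside 0.0127% of all 15753 genes (0.00635% higher and 0.00635% lower in Nnat+/-p). Without the filter on low counts edgeR called 3 of the 4, beside 64 of all 35231 genes then tested. At an unadjusted p under 0.05 edgeR gave 2 of the 4 and DESeq2 1, with Nr5a1 at a log2 fold change of 1.56 (SE 0.67) and Fezf1 at 1.39 (SE 0.54), both with an edgeR adjusted p of 0.998. Without replicate 53 these were 0.17 and 1.00. Adcyap1 had a log2 fold change of 0.70 (SE 0.52) and Sox14 one of -0.57 (SE 0.62). Nr0b1, which encodes DAX1, a partner that represses SF-1 activity, had a log2 fold change of 1.90 (SE 0.77, edgeR adjusted p = 0.998). The 6 ARC markers had a median log2 fold change of 0.03, close to the -0.03 of all genes tested.

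**Figure D3:**
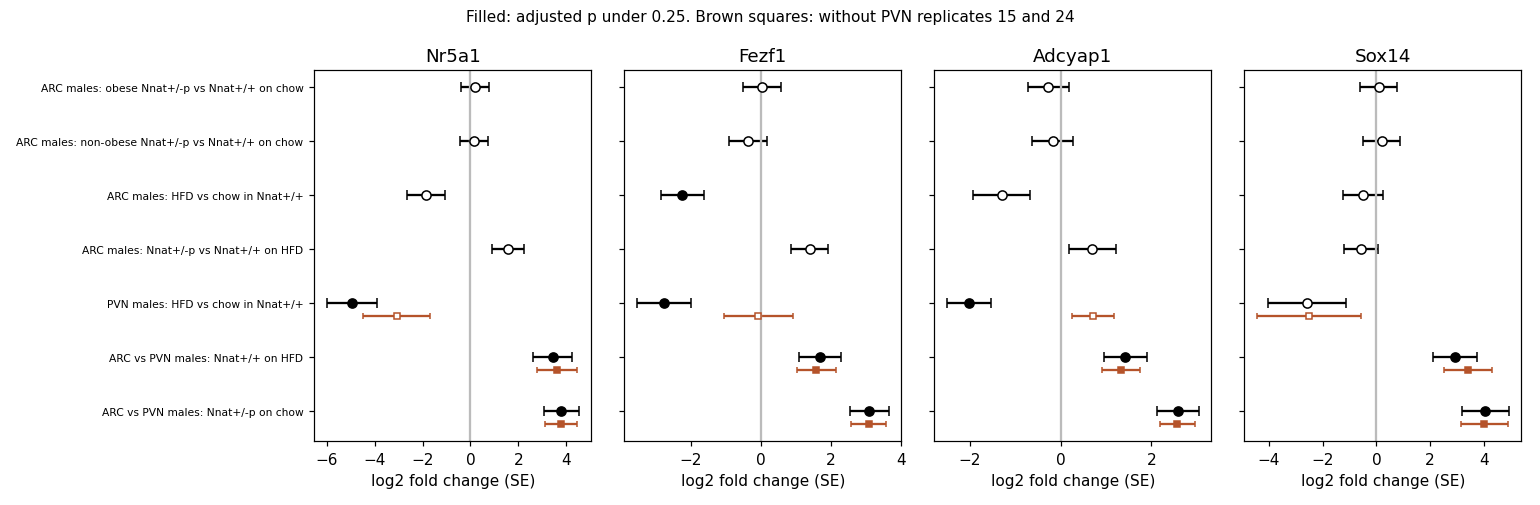
Log2 fold changes (horizontal, first group over second) with standard errors for the 4 genes in 7 comparisons (rows). Filled symbols have an adjusted p under 0.25, and brown squares repeat the comparisons with PVN libraries without replicates 15 and 24. All 4 genes are to the right of 0 in both ARC over PVN comparisons, and the HFD over chow values in the PVN move to -0.08 for Fezf1 and 0.72 for Adcyap1 without those libraries.

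In the male PVN, replicate 15 stood far above the other chow-fed Nnat+/+ libraries in Nr5a1, Adcyap1 and Fezf1. Nr5a1 was 4.36, 9.40 and, in replicate 15, 55.4 CPM in chow-fed Nnat+/+ and 0 to 1.95 CPM in the 6 HFD libraries. Adcyap1 was 8.72, 10.0 and, in replicate 15, 123 CPM on chow and 8.60 to 17.3 CPM on HFD. Fezf1 was 0.313, 6.97 and, in replicate 15, 50.8 CPM on chow and 0.935 to 7.28 CPM on HFD. Sox14 was 0.218, 4.56 (replicate 15) and 5.01 CPM on chow and 0 to 1.25 CPM on HFD. For Nr5a1 the groups did not overlap, as for 2.87% of all 17576 genes tested in the same direction.

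Called lower by edgeR were 3 of the 4, against 1.43% of all genes (1.12% lower and 0.313% higher on HFD). Nr5a1 fell by 4.96 on the log2 scale (SE 1.05, edgeR adjusted p = 0.0296), Adcyap1 by 2.01 (SE 0.49, adjusted p = 0.0875) and Fezf1 by 2.77 (SE 0.78, adjusted p = 0.149). Sox14 had a log2 fold change of -2.59 (SE 1.45, edgeR adjusted p = 0.568). DESeq2 called 2, and its adjusted p was not available for 1. The Fezf1 call was lost without HFD replicate 23, 25, 26 or 28 (edgeR adjusted p = 0.269, 0.265, 0.285 and 0.257).

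Without PVN replicates 15 and 24, 0 of the 4 were called. Adcyap1 then had a log2 fold change of 0.72 (SE 0.46, edgeR adjusted p = 0.501), the opposite sign, and Fezf1 one of -0.08 (SE 0.99, adjusted p = 0.986). Nr5a1 kept a negative value of -3.08 (SE 1.41, edgeR adjusted p = 0.342). The diet effect did not differ detectably between ARC and PVN in a joint fit of both nuclei, which included replicates 15 and 24 and was not repeated without them, where the difference of the log2 fold changes was 3.05 for Nr5a1 (SE 1.34, edgeR adjusted p = 0.86) and had an adjusted p of at least 0.874 in the others.

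The chow genotype comparisons in the male PVN shared those Nnat+/+ libraries. Nr5a1 was 0, 1.19, 4.34 and 7.19 CPM in the obese and 0, 0.227 and 8.38 CPM in the non-obese Nnat+/-p libraries. Fezf1 was 2.88 to 6.50 CPM and 0.227 to 11.5 CPM, Adcyap1 8.93 to 17.3 CPM and 7.94 to 14.9 CPM, in the same order. Sox14 was 0 to 4.31 CPM in the obese and 0 to 0.227 CPM in the non-obese libraries.

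Against Nnat+/+, edgeR and DESeq2 each called 0 of the 4 for either weight class of carrier, beside 0.0256% and 0.0128% of the 15618 genes tested. At an unadjusted p under 0.05 edgeR gave 3 of 4 in either comparison and DESeq2 0 in the obese and 1 in the non-obese. Adcyap1 had a log2 fold change of -1.96 in the obese (SE 0.64, edgeR adjusted p = 1.00) and -2.15 in the non-obese (SE 0.71, adjusted p = 1.00). Adcyap1 was called lower without chow replicate 13 (edgeR adjusted p = 0.081 in the obese and 0.198 in the non-obese) and, in the obese, without replicate 14 (adjusted p = 0.232). Without replicates 15 and 24 its log2 fold changes were 0.66 and 0.46, on the other side of 0, and those of Fezf1 moved from -2.07 and -1.92 to 0.50 and 0.66. Comparing the weight classes directly, 0 were called by either tool, 0 had an unadjusted p under 0.05 in edgeR and 1 in DESeq2, and 0% of all genes were called.

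On HFD, Nnat+/-p and Nnat+/+ PVN libraries held similar low levels. Adcyap1 was 13.4, 13.7 and 18.0 CPM in Nnat+/-p and 8.60 to 17.3 CPM in Nnat+/+. Nr5a1 did not exceed 0.943 CPM and Fezf1 not 5.11 CPM in Nnat+/-p. Sox14 had no count in the 3 Nnat+/-p libraries, where 3 counts would be 0.383 to 0.45 CPM, and 0 to 1.25 CPM in Nnat+/+. No fold is given for Sox14, since most of these values are at or near that limit. Of the 4 genes, edgeR and DESeq2 called 0, with 1 at an unadjusted p under 0.05 in each, beside 0.00569% of 17576 genes. Without replicates 15 and 24 edgeR again called 0, and the log2 fold change of Adcyap1 was 0.18 (SE 0.37) against 0.26 (SE 0.51) with them.

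In the female PVN, Sox14 was nearly without counts, Nr5a1 and Fezf1 were low and uneven, and Adcyap1 had at least 4 counts in every library. Sox14 had 4 counts in 1 library and 0 in the other 9, a depth at which 3 counts would be 0.0992 to 0.482 CPM, and it was not tested. Nr5a1 was 0 in 5 of 10 libraries and highest in an obese Nnat+/-p library at 3.09 CPM. Fezf1 had 10 or more counts in 6 of the 10 libraries and ranged from 0 to 1.94 CPM in Nnat+/+, 0.895 to 8.06 CPM in non-obese and 0 to 3.62 CPM in obese Nnat+/-p libraries. Adcyap1 averaged 10.5 ± 2.32 CPM in Nnat+/+ (SD, n = 4), 9.20 ± 7.77 CPM in non-obese (n = 3) and 19.2 ± 9.38 CPM in obese Nnat+/-p mice (n = 3).

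Of the 3 genes tested in females, 0 were called by edgeR or DESeq2 and 0 had an unadjusted p under 0.05 in each comparison. Over all 15485 genes, edgeR called 0.0129% in the obese and 0.00646% in the non-obese carriers against Nnat+/+, and 0% between obese and non-obese. DESeq2 called 168 of 15154, 255 of 15154 and 62 of 16846 genes, in the same order. The obese to Nnat+/+ difference of Adcyap1 was 0.78 on the log2 scale (SE 0.87, edgeR adjusted p = 0.999). DESeq2 gave no adjusted p for 1 or 2 of these genes, depending on the comparison.

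The last question was whether the 4 genes varied as a set from one ARC library to the next. Within groups, the SD of log2(CPM + 1) was 1.56 for Nr5a1, 1.25 for Fezf1 and 1.30 for Adcyap1, against a median of 0.55 over the 15753 genes tested. These stood at percentiles 99.9, 99.7 and 99.7 of all genes. Sox14, with fewer counts, had an SD of 0.70, at percentile 75.0.

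The genes rose and fell together. Over 20 ARC libraries Nr5a1 correlated with Fezf1 with Pearson's r = 0.94 and Spearman's rho = 0.928 (permutation test with 100000 resamples, two-sided, p = 1e-05 for each, the smallest this number gives; adjusted over the 6 pairs 2e-05 and 1.5e-05). Nr5a1 and Adcyap1 gave r = 0.919 and rho = 0.911, and Fezf1 and Adcyap1 r = 0.938 and rho = 0.935, with the same permutation p and adjusted p. With Sox14, r was 0.786 for Nr5a1, 0.751 for Adcyap1 and 0.694 for Fezf1 (permutation test, adjusted p = 6e-05, 0.000228 and 0.00071). In the same order rho was 0.798, 0.824 and 0.761 (permutation test, adjusted p = 6e-05, 1.5e-05 and 0.00018). Of all genes tested, 3.17%, 2.76% and 5.14% had an r with Nr5a1, Adcyap1 and Fezf1 at least as high as that of Sox14.

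The correlations remained positive within groups and without the extreme libraries. After centring each group on its mean, r lay between 0.80 (Fezf1 and Sox14) and 0.932 (Fezf1 and Adcyap1). Without the 2 libraries farthest from the median of the first gene, r lay between 0.686 and 0.917. ARC replicates 39 and 40 share a labelled weight and may come from 1 animal; without replicate 40, r lay between 0.657 and 0.935.

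**Figure D4:**
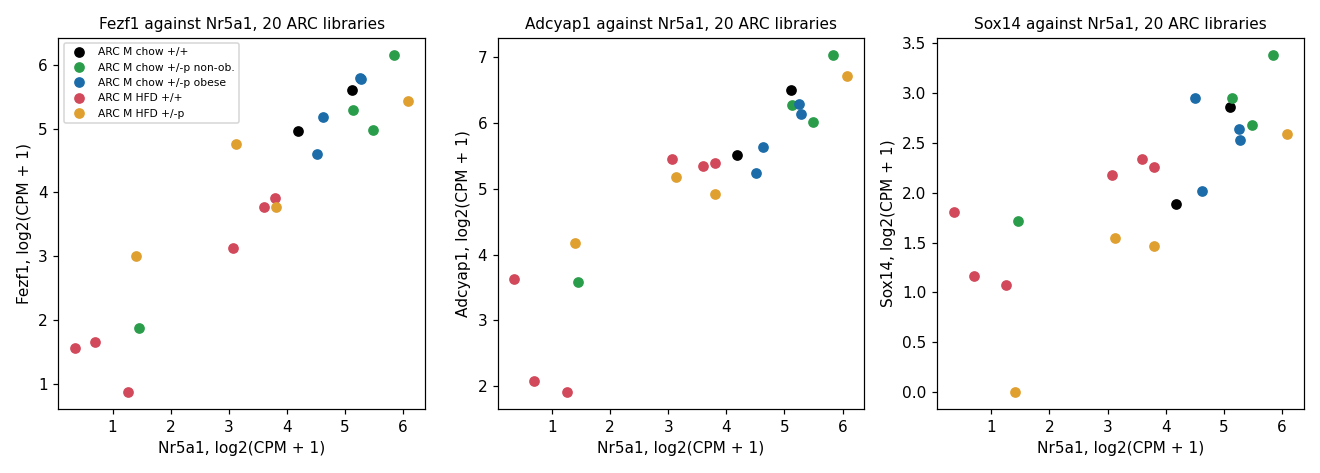
Fezf1, Adcyap1 and Sox14 (vertical) against Nr5a1 (horizontal), each as log2(CPM + 1), in the 20 ARC libraries, coloured by group. All 3 rise with Nr5a1 (r = 0.94, 0.919 and 0.786), and the 3 libraries lowest in Nr5a1 are HFD-fed Nnat+/+.

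Among all genes tested in the ARC, those most like Nr5a1 over the 20 libraries were Cbln1, which encodes a secreted organiser of synapses (r = 0.959), Megf11 (0.959), Myh7, a myosin heavy chain known from heart and slow muscle (0.958), Rbfox1, a neuronal splicing factor (0.957), and Cacna2d1, a calcium channel subunit (0.953). Cbln1 also headed the genes most like Fezf1 (0.963), followed by Gda (0.954), Hapln4 (0.941), Camkv (0.941) and Nr5a1 itself (0.94). For Adcyap1 they were Slc17a6 (0.95), Cbln1 (0.939), Fezf1 (0.938), Fscn1 (0.938) and Ncdn (0.936). For Sox14 they were Sowaha (0.873), Usp15 (0.858), Adap1 (0.853), Sema5a (0.852) and Cacng8 (0.85), a set that held none of the other members. These are descriptions, and all libraries share their capture and depth.

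Of the 12 other VMH-linked genes, 9 had an r above 0 with Nr5a1, with a median of 0.68. That count is near the share over all genes tested. Of these, 70.2% had an r with Nr5a1 of at least 0.0395 and 74.3% one of at least -0.00731. The highest were Nptx2 (0.944), Cnr1 (0.922), Slc17a6 (0.904) and Bdnf (0.893), while Esr1, the estrogen receptor gene that the ARC expresses too, was at -0.355, Dlk1 at -0.31 and Foxp2 at -0.282. Of the 6 ARC markers, 5 had an r below 0 with Nr5a1, from -0.535 for Cartpt to -0.327 for Agrp, and Pomc was at 0.088. After centring on groups r was -0.142 for Cartpt and -0.125 for Agrp, nearer to 0, and 0.407 for Pomc, farther from it. Calb2, listed as a thalamic marker but also made in other neurons, followed Nr5a1 at 0.858.

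**Figure D5:**
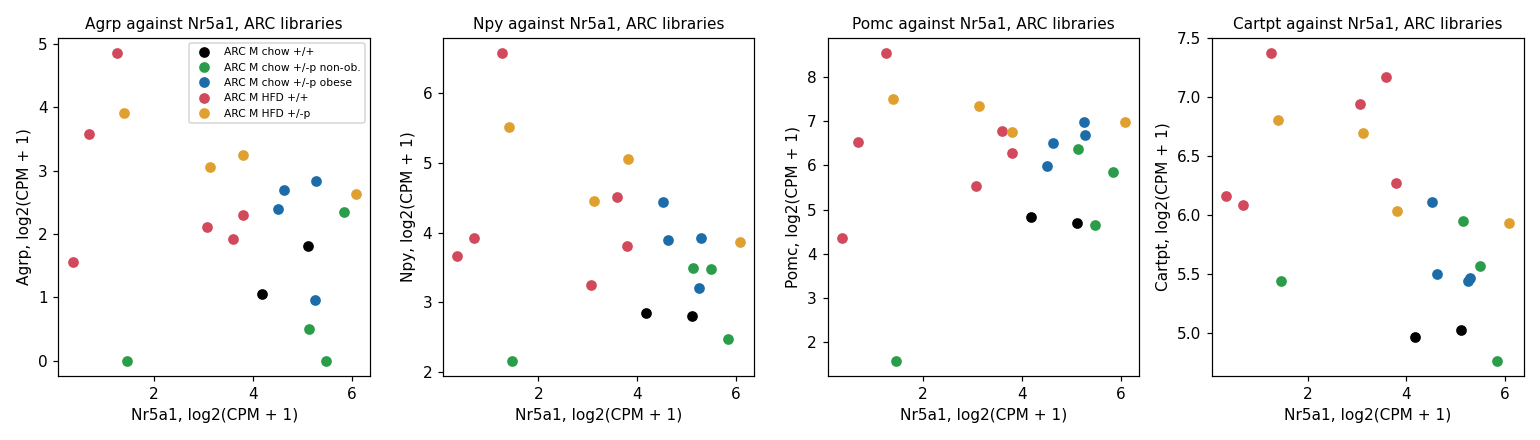
The ARC markers Agrp, Npy, Pomc and Cartpt (vertical) against Nr5a1 (horizontal), as log2(CPM + 1), in the 20 ARC libraries, coloured by group. Both chow-fed Nnat+/+ libraries lie below all HFD libraries in Npy and Cartpt, and Cartpt has the most negative r with Nr5a1 (-0.535).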

How the data were processed

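RNA from laser-captured PVN and ARC was made into libraries with a kit for total RNA that keeps strand, and sequenced as single reads of 50 bases. The authors deposited 3 tables of raw counts per Ensembl gene. Per the submitters' processing notes, STAR 2.5.0a and GRCm38 were used. The counting tool and its strand setting are not given in the sources used here. Of 53 libraries, 49 were used. Libraries under 25% of their table's median total, and 1 whose label and table disagree, were left out.

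The 4 genes, their lists and the tests were chosen with earlier results of these data known. Comparisons used edgeR 4.0.16 (R 4.3.3) with TMM, filterByExpr (minimum count 10) and quasi-likelihood tests with Benjamini-Hochberg adjustment over all genes tested, called at adjusted p under 0.25. The fits were also run on simulated counts with the same spread for every gene and changes only in better expressed genes. That run cannot check calls of genes as variable or as low as these. Chow comparisons were fitted within a nucleus and sex over the 3 chow groups, HFD comparisons over all groups of a nucleus, and ARC over PVN over all male libraries. Genes named were the 4 members, genes of the lists, and the 5 most correlated with each member over the ARC. DESeq2 1.42.0, RLE scaling, no filter, an adjusted p under 0.05, left-out libraries, all labelled libraries, replicates 39 and 40 summed, libraries of conflicting labelled weight removed and a labelled-weight block were alternatives. Displayed CPM use raw library totals. The nearest 2 libraries of a group differed by more than counting noise. Replicate numbers are unique, and nothing but labelled weight ties libraries to animals, so p-values measure the spread between libraries, which may be partly technical. Kiss1 is not analysed here.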

Additional observations from a re-analysis of the deposited data

Results flagged for a closer look

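Among 28 combinations of a gene and a group with 4 to 10 libraries, 3 held a library far from the others by Dixon's criterion. Chance gives this in about 1 of 20 for normally distributed values. Counts near 0 with ties are not such values, so the 3 cannot be set against that rate. Nr5a1 was 0.804 CPM (5 counts) in female PVN Nnat+/+ replicate 2 and 0 in the other 3, where any count would meet the criterion. Fezf1 was 7.28 CPM in PVN replicate 27, an HFD-fed Nnat+/+ male, against at most 3.1 CPM in the rest of its group. Sox14 was 4.31 CPM (15 counts) in PVN replicate 20, an obese chow-fed Nnat+/-p male, against at most 0.723 CPM in its group. PVN replicate 15 sits in a group of 3, too small for this criterion.

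In 2 libraries left out of the comparisons for their low totals, and used only where all labelled libraries were fitted, a VMH gene was above every Nnat+/+ library of the same table. Fezf1 was 294 CPM (239 counts) in the female PVN library labelled Sample 7, where Nr5a1, Adcyap1 and Sox14 had no count. Adcyap1 was 129 CPM (35 counts) in the library labelled ARC Sample 35, where the other three had no count. The cause was not tested in either.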

How the results depend on the processing

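Replicate numbers are unique over the series and pair no libraries, so the only block was labelled weight, in ARC over PVN. The calls of the 4 genes moved under these alternatives. In the ARC, HFD over chow in Nnat+/+, 1 was called, against 0 at an adjusted p under 0.05, with DESeq2, with all labelled libraries and without libraries of conflicting labelled weight, 3 when all genes with a total count over 1 were kept, and 0 to 2 with 1 library left out. Without a filter beyond a total count over 1, 3 were called in the ARC, Nnat+/-p over Nnat+/+ on HFD. In the male PVN it was 2 each for obese and non-obese carriers over Nnat+/+ (0 to 1 with 1 library left out). Over all genes, the unfiltered calls were 64 of 35231 in that ARC comparison and 547 of 35231 in the ARC, HFD over chow. They were 43 and 18 of 34476 in the male PVN for obese and non-obese carriers. Why more genes gave more calls was not tested. In the male PVN, HFD over chow, 3 were called, against 1 at an adjusted p under 0.05, 0 without PVN replicates 15 and 24 (chosen after seeing the data) and 0 to 3 with 1 library left out. With all labelled libraries, 1 was called in the female PVN for obese over Nnat+/+ and 1 for obese over non-obese, both Fezf1, which Sample 7 carries. In HFD-fed Nnat+/+, ARC over PVN, 4 were called, against 2 at an adjusted p under 0.05, 2 with the labelled-weight block and 2 to 4 with 1 library left out. In chow-fed Nnat+/-p, ARC over PVN, 4 were called in every alternative run.

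Some log2 fold changes turned sign. Without PVN replicates 15 and 24, Fezf1 was 0.50 in the obese and 0.66 in the non-obese male PVN over Nnat+/+, and Adcyap1 was 0.66, 0.46 and, for HFD over chow, 0.72. In the ARC, non-obese over Nnat+/+, Nr5a1 was -0.0026 with replicates 39 and 40 summed and Fezf1 0.043 with all labelled libraries. For obese over non-obese in the ARC, Nr5a1 was -0.0045 with DESeq2. Fezf1 in the male PVN, Nnat+/-p over Nnat+/+ on HFD, was 0.0054 with DESeq2, 0.00597 with RLE scaling, 0.014 without that filter and 0.22 without conflicting weights. In the female PVN, obese over non-obese, it was 5.34 with all labelled libraries. Leaving out 1 library at a time turned the sign of other log2 fold changes, none of them called with all libraries in, except Adcyap1 in the male PVN on HFD over chow. For the ARC, obese over Nnat+/+, the values ran for Nr5a1 from -0.22 to 0.76, Fezf1 from -0.26 to 0.43, Adcyap1 from -0.69 to 0.33 and Sox14 from -0.40 to 0.83. The range was, in the ARC, non-obese over Nnat+/+, for Nr5a1 from -0.26 to 0.72, Fezf1 from -0.94 to 0.0251, Adcyap1 from -0.61 to 0.42 and Sox14 from -0.29 to 0.94. For the ARC, obese over non-obese, the values ran for Nr5a1 from -0.38 to 0.39, Adcyap1 from -0.46 to 0.34 and Sox14 from -0.38 to 0.15. The range was, in the ARC, HFD over chow, for Sox14 from -0.999 to 0.26. For the male PVN, obese over Nnat+/+, the values ran for Fezf1 from -2.67 to 0.50 and Adcyap1 from -2.49 to 0.66. The range was, in the male PVN, non-obese over Nnat+/+, for Fezf1 from -2.70 to 0.66 and Adcyap1 from -2.67 to 0.46. For the male PVN, obese over non-obese, the values ran for Nr5a1 from -0.29 to 4.75, Fezf1 from -0.74 to 0.63 and Adcyap1 from -0.0716 to 0.59. The range was, in the male PVN, HFD over chow, for Adcyap1 from -2.50 to 0.65. For the male PVN, Nnat+/-p over Nnat+/+ on HFD, the values ran for Fezf1 from -0.67 to 0.41. The range was, in the female PVN, obese over Nnat+/+, for Fezf1 from -2.62 to 2.82. For the female PVN, non-obese over Nnat+/+, the values ran for Nr5a1 from -0.0898 to 2.06 and Adcyap1 from -0.87 to 0.21.

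Counts of all genes called moved by more than 1.5 times in most comparisons. They were 181 in the ARC, HFD over chow (44 to 547). With 1 library left out this ARC count fell below 44 at its lowest, and it is not given because 1 chow library can remain. In the male PVN, HFD over chow, 251 were called (294 to 1134, and 82 to 1083 with 1 library left out). The counts were 1489 in HFD-fed ARC over PVN (1249 to 3584) and 6676 in chow-fed ARC over PVN (2812 to 7645). In the female PVN they were 2 for obese over Nnat+/+ and 0 for obese over non-obese, against 936 and 622 with all labelled libraries, and 1 for non-obese over Nnat+/+ against 255 with DESeq2. In the other 8 comparisons they were 0 to 4, against at most 64. Depth limits Sox14 and Nr5a1 most, with a median of 1 and 6 counts a library in the male PVN.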
